A study of Homo sapiens with 4 samples.

Results

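The genes described here are 10 members of the Notch signalling system: the receptors NOTCH1, NOTCH2 and NOTCH3, the ligand JAG1, the Delta-like proteins DLK1 and DNER, the Deltex family protein DTX3, and the transcription factors HES1, HEY1 and HES6. They were taken as every probe set that the array's annotation assigns to 1 gene symbol only, with that symbol among the 10. This gave 28 of the 54675 probe sets on the array, and 10 of the 19775 gene symbols that have such a probe set. RNA came from SH-SY5Y, a human neuroblastoma line of sympathetic neuronal character grown in culture. One group of 2 arrays came from cells transfected with a small interfering RNA (siRNA) against LSD1 (siLSD1), and the other group of 2 arrays from cells given a control siRNA (siControl). Per the submitters, both arrays of a group came from separate transfections, so the spread between arrays is that between transfections of 1 cell line. The siRNA sequences and the harvest time were not stated in the labels. LSD1, the protein that KDM1A encodes, removes methyl groups from histone lysines and acts in repressor complexes.

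Notch receptors are single-pass membrane proteins that are activated by ligands on neighbouring cells. Ligand binding leads to cleavage by an ADAM protease and then by gamma-secretase, and the released intracellular domain enters the nucleus. There it binds RBPJ, a DNA-binding protein that otherwise holds target genes in a repressed state, and recruits Mastermind coactivators. The HES and HEY genes are the best known targets. They encode basic helix-loop-helix repressors that hold back proneural genes, so that active Notch signalling keeps neural precursors from differentiating. DLK1 resembles the Delta ligands but lacks the domain with which they activate the receptor, and it is abundant in tumours of the sympathetic nervous system.

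Promoter sequences are shown for 3 members as 1 target gene that carries the RBPJ motif and 2 members that do not. HES1 had the log2 fold change of largest size among the brightest probe sets of the members. NOTCH3 was a receptor whose groups did not overlap, and HES6 was a HES gene whose groups did. Each sequence is the 250 bases before the RefSeq start site in GRCh38.p14, written 5′ to 3′ on the gene's strand. HES1 lies on the plus strand at chr3:194135898-194136147, NOTCH3 on the minus strand at chr19:15200996-15201245, and HES6 on the minus strand at chr2:238240039-238240288. Capitals mark TGGGAA, the core of the RBPJ motif, TATAAA, the TATA box, and GGGCGG, the GC box, on either strand.
HES1: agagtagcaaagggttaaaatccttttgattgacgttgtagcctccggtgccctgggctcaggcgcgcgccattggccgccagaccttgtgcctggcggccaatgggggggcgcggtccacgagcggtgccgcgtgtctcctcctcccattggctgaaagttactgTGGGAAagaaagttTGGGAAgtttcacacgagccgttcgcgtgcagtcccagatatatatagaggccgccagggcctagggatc
NOTCH3: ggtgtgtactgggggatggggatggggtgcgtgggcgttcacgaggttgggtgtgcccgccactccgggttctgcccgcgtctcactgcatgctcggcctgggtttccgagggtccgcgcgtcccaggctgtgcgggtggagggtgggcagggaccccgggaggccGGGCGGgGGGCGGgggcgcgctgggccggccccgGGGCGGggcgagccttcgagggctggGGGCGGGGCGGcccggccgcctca
HES6: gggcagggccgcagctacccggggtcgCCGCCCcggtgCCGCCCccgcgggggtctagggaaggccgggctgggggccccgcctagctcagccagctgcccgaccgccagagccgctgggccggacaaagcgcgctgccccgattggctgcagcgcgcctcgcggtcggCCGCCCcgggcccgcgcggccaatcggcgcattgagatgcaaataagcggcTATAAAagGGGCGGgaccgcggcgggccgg

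The table of RefSeq promoters held 6 of the 10 members (NOTCH1, NOTCH2, NOTCH3, JAG1, HES1 and HES6). DLK1, DNER, DTX3 and HEY1 had no entry. TGGGAA was searched on both strands and was found in the promoter of HES1 alone among these 6, starting 84 and 70 bases before the start site. The same search found TGGGAA in 20.8% of all 35116 promoters in the table. The first of the HES1 matches was also a match to the longer GTGGGAA, which 5.43% of promoters held. CACNAG, the N box that HES repressors bind, was found at 3 places in HES1 and at 1 in NOTCH3, and in 32.0% of all promoters. CACGTG, an E box, was found in 0 of the 6 and in 6.34% of all promoters. TATAAA was found 30 bases before the start site of HES6, with 10.7% of promoters holding it, and TATATA in HES1 (an overlapping pair of matches), with 3.73% of promoters holding it. CCAAT was found in HES1 and HES6 (32.0% of all promoters), and GGGCGG in 5 of the 6, HES1 being the exception (42.6% of all). These matches describe letters in a window, not binding.

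All levels below are log2 signals after quantile normalization, so 1 unit is a 2-fold difference, and all fold changes are siLSD1 over siControl. The siRNA's target was checked first. KDM1A had a log2 signal of 8.40 and 8.54 on the siLSD1 arrays, against 9.79 and 9.78 on the siControl arrays. Its log2 fold change was -1.32 with a 95% interval from -1.70 to -0.94, which left 40.04% of the control level. This was the smallest p of any probe set (6.23e-05 in limma's moderated test), yet its adjusted p over all 32768 tested probe sets was 0.986. These are levels in bulk RNA, in which fewer cells of a type and less RNA per cell cannot be told apart. The arrays were not alike. The siControl replicate 1 array correlated least with the others (mean r of 0.942, against 0.954 to 0.956) and was the lowest or the highest of the 4 for 61.8% of the tested probe sets. On siLSD1 replicate 2 the 3′ probe sets of the control transcripts exceeded the 5′ ones by 0.30 for GAPDH and 1.16 for ACTB in deposited log2 signal, against -0.030 to 0.0014 and 0.54 to 0.71 on the other arrays. This excess is used to judge the quality of RNA and labelling. Markers of sympathetic neuroblastoma were bright, with 10 of 11 measured markers above the level required for testing and GATA3, ISL1 and STMN2 between 11.44 and 12.13 on every array. TH, the enzyme of the first step of catecholamine synthesis, lay below that level on every array. Of 4 measured Schwann and glial markers, 1 (ERBB3) was above it, as were 2 of 3 blood markers, 3 of 5 epithelial markers and all 6 fibroblast markers. The log2 fold changes of the fibroblast markers ran from -0.13 (DCN) and -0.11 (COL1A2) through 0.16 (COL1A1), 0.23 (LUM) and 0.41 (COL3A1) to 0.94 (PDGFRB), with groups that did not overlap for COL3A1 and PDGFRB. PDGFRB, a growth factor receptor of mesenchymal cells, read 6.12 and 6.32 in siLSD1 cells, against 4.88 and 5.68 in siControl cells (limma unadjusted p = 0.0330, adjusted p = 0.986). Its log2 fold change was 0.54 without siControl replicate 1 and 1.34 without siControl replicate 2. It was 1.05 without siLSD1 replicate 1 and 0.84 without siLSD1 replicate 2. The summed linear signal was 19380 and 19332 against 18858 and 22774 for the sympathetic list, 32.7 and 19.4 against 25.5 and 16.5 for the glial list, 41.0 and 49.4 against 33.8 and 32.9 for the blood list, and 70.5 and 86.0 against 48.4 and 75.6 for the epithelial list (siLSD1 against siControl).

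None of the Notch members could be called. A probe set was tested if its mean over the arrays was at least 3.26, the 40th percentile of all probe sets apart from controls, and 20 of the 28 member probe sets passed, with at least 1 for each of the 10 genes. At an adjusted p under 0.05 in limma, 0 of these 20 were called, against 0% of all tested probe sets, and their adjusted p ran from 0.986 to 0.999. At an unadjusted p under 0.05 limma gave 1 of 20, a DLK1 probe set, or 5%, against 3.45% of all tested probe sets. The mean was higher in siLSD1 cells for 13 of the 20 and lower for 7, with a median log2 fold change of 0.18, against 0.00061 over all tested probe sets. Both siLSD1 arrays lay above both siControl arrays for 5 of the 20, or 25%, against 16.7% of all tested probe sets, and below both for 2, or 10%, against 16.0%. With 20 probe sets from 10 genes these shares were close to the background, and the typical size of a difference (a median of 0.22 without regard to sign) was close to the 0.23 of all tested probe sets. The members' 95% intervals, not adjusted for the number of probe sets, reached a median of 0.83 to either side of the log2 fold change. Most differences below that size were not detectable here. At the adjusted threshold larger ones could be missed too, since KDM1A, at -1.32, was not called. With 2 arrays in each group, 0.333 is the smallest two-sided p that an exact permutation test allows.

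**Figure D1:**
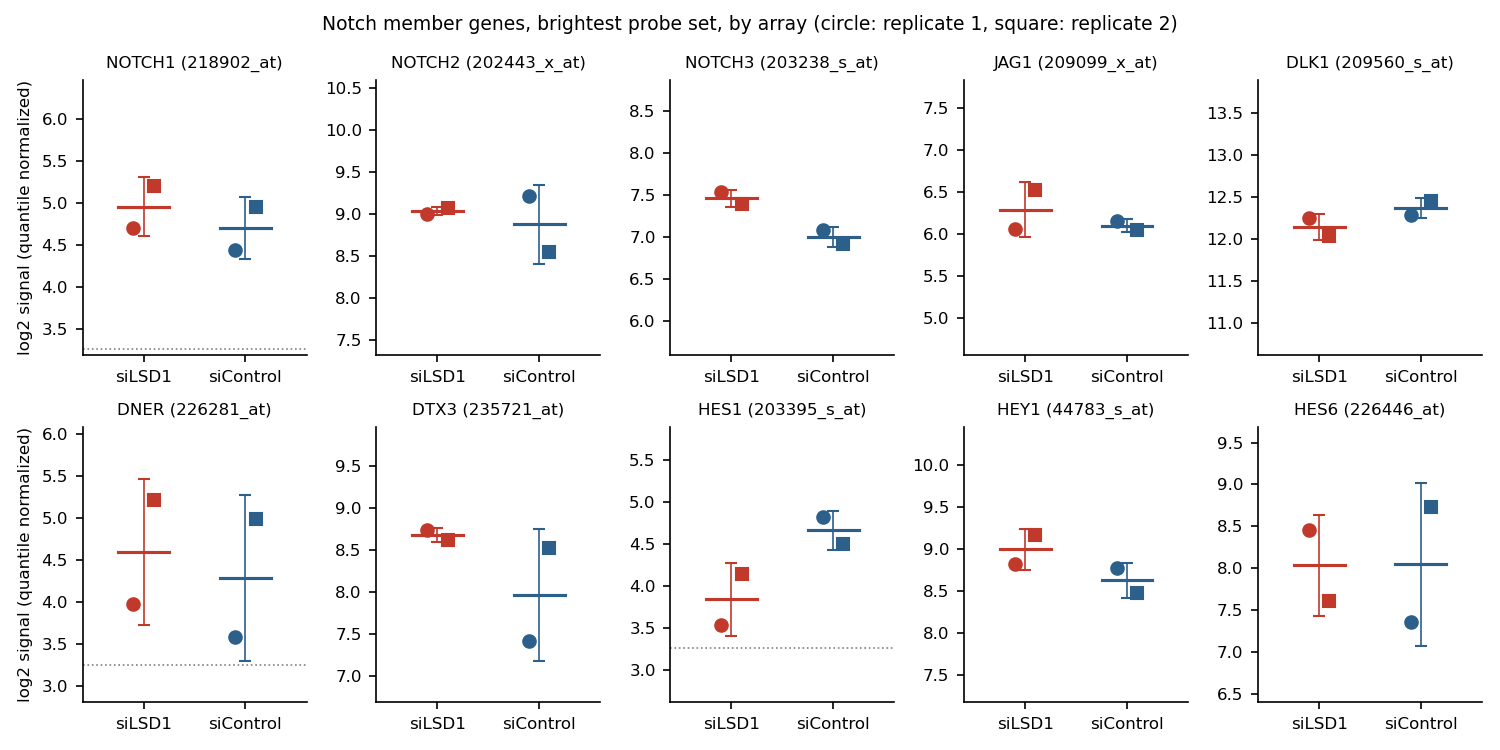
Log2 signal of the brightest probe set of each of the 10 genes on every array, siLSD1 left of siControl, with circles for replicate 1 and squares for replicate 2. Horizontal lines are group means, error bars are SD (n = 2), every panel spans the same range of log2 units, and the dotted line is the level of 3.26 required for testing. The groups do not overlap for NOTCH3, DLK1, DTX3, HES1 and HEY1, whereas DNER and HES6 spread by more within each group than between groups.

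Among the receptors, NOTCH3 showed the clearest separation. Its brighter probe set, 203238_s_at, had a log2 signal of 7.54 and 7.39 in siLSD1 cells, against 7.09 and 6.92 in siControl cells. Both siLSD1 arrays were higher than both siControl arrays, with group means of 7.46 ± 0.10 and 7.0 ± 0.12 (SD, n = 2). The 1.38-fold difference (log2 fold change 0.46, 95% interval from -0.12 to 1.04) did not pass limma's test (unadjusted p = 0.103, adjusted p = 0.986). The log2 fold change stayed between 0.37 and 0.55 when any 1 array was left out. The other NOTCH3 probe set, 203237_s_at, was too dim to be tested and read 3.19 and 2.17 against 1.71 and 2.82, where the groups overlapped.

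NOTCH2 was measured by 4 tested probe sets that did not move alike. The brightest, 202443_x_at, read 9.0 and 9.08 in siLSD1 cells, against 9.21 and 8.55 in siControl cells. The siLSD1 arrays thus lay between the siControl arrays, whose spread (SD 0.47) exceeded the difference between the groups (log2 fold change 0.16). The next, 212377_s_at, had the same order of arrays, with 8.92 and 8.74 against 9.07 and 8.21 and a log2 fold change of 0.19. For both, the log2 fold change turned without siControl replicate 2, to -0.17 and -0.24, and was 0.49 and 0.62 without siControl replicate 1. The probe set 202445_s_at, at 4.86 and 4.70 against 4.55 and 3.96, was the only one of the 4 whose groups did not overlap (log2 fold change 0.52, limma unadjusted p = 0.230), and under the deposited scaling its groups overlapped. The fourth, 210756_s_at, had a log2 fold change of -0.10, which turned to 0.10 under median centring. Probe sets with the suffix _x_at hold probes that also match other sequences, and NOTCH2 has close copies, the NOTCH2NL genes, so that the value of 202443_x_at may include them. A further probe set that the annotation assigns to NOTCH2 and such copies together was not used. Of the NOTCH2 probe sets, 202443_x_at, 212377_s_at and 202445_s_at were lowest on siControl replicate 2, and 210756_s_at on siLSD1 replicate 2. The summed linear signal of the fibroblast markers was also lowest on siControl replicate 2 (858 and 989 in siLSD1 cells, against 864 and 624 in siControl cells). COL1A1, COL3A1, LUM and DCN were each lowest there, whereas COL1A2 was highest there and PDGFRB was lowest on siControl replicate 1. The part of the fibroblast signal in the NOTCH2 values was not tested.

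NOTCH1 was dim. The tested probe set, 218902_at, read 4.71 and 5.2 in siLSD1 cells, against 4.44 and 4.96 in siControl cells. The groups overlapped, and within each group replicate 2 was the higher array. Its log2 fold change of 0.26 (95% interval from -0.65 to 1.16) came to -0.0041 with siControl replicate 1 left out and to 0.0082 with siLSD1 replicate 2 left out. The second NOTCH1 probe set, 223508_at, was below the level for testing at 2.89 and 3.37 against 1.01 and 1.90, and although its groups did not overlap, the size of a difference at this level is uncertain.

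The canonical ligand JAG1 was represented by 6 probe sets, of which 3 were tested. The brightest, 209099_x_at, read 6.05 and 6.52 in siLSD1 cells, against 6.15 and 6.04 in siControl cells. Only siLSD1 replicate 2 stood above the siControl arrays, and without it the log2 fold change of 0.19 was -0.043. The probe sets 216268_s_at (log2 fold change 0.092) and 209098_s_at (0.22) also had slightly higher means, with 3.85 and 3.88 against 3.74 and 3.55 for the second, whose groups did not overlap under quantile normalization and did under the deposited scaling. The 3 dim JAG1 probe sets disagreed, since 231183_s_at read 3.45 and 3.55 against 2.22 and 2.61, 229924_s_at read 0.44 and 0.27 against 0.81 and 1.54, and the arrays of 209097_s_at ranged from 0.31 to 3.37.

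DLK1 was the member with the smallest p. Its brighter probe set, 209560_s_at, read 12.25 and 12.03 in siLSD1 cells, against 12.28 and 12.45 in siControl cells. Both siLSD1 arrays were lower than both siControl arrays, by a small margin for siLSD1 replicate 1 and siControl replicate 1. The group means were 12.14 ± 0.15 and 12.37 ± 0.12 (SD, n = 2), a 1.17-fold lower level in siLSD1 cells (log2 fold change -0.23, 95% interval from -0.43 to -0.021). Limma's unadjusted p was 0.0352 and its adjusted p 0.986. This unadjusted p depended on the fit. It was larger with no mean-variance trend (0.367), no filter (0.0849), the deposited scaling (0.0590), median centring (0.269) and the mean of all probe sets of a gene (0.321). It was slightly smaller with the 60th percentile filter (0.0322), the brightest probe set per gene (0.0257) and a replicate term (0.0272). The lowest value was that of siLSD1 replicate 2, the array with the largest 3′ excess of the control transcripts. The part of that excess in the DLK1 value was not tested. The log2 fold change was -0.12 without siLSD1 replicate 2 and -0.14 without siControl replicate 2. It was -0.33 without siLSD1 replicate 1 and -0.31 without siControl replicate 1. Under median centring the groups overlapped (log2 fold change -0.13). The second DLK1 probe set, 235600_at, read 8.30 and 8.09 against 8.17 and 8.28, with overlapping groups and a log2 fold change of -0.028. Its sign turned under the deposited scaling (0.018) and under median centring (0.19), where the groups no longer overlapped.

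DNER, a neuronal membrane protein with EGF-like repeats that has been described as a Notch ligand, had 1 probe set, 226281_at. It read 3.98 and 5.22 in siLSD1 cells, against 3.59 and 4.99 in siControl cells. In both groups replicate 1 was low and replicate 2 high, so that the spread within groups (SD 0.87 and 0.99) exceeded the difference of 0.31 between their means. The log2 fold change was -0.39 without siControl replicate 1 and 1.01 without siControl replicate 2.

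**Figure D2:**
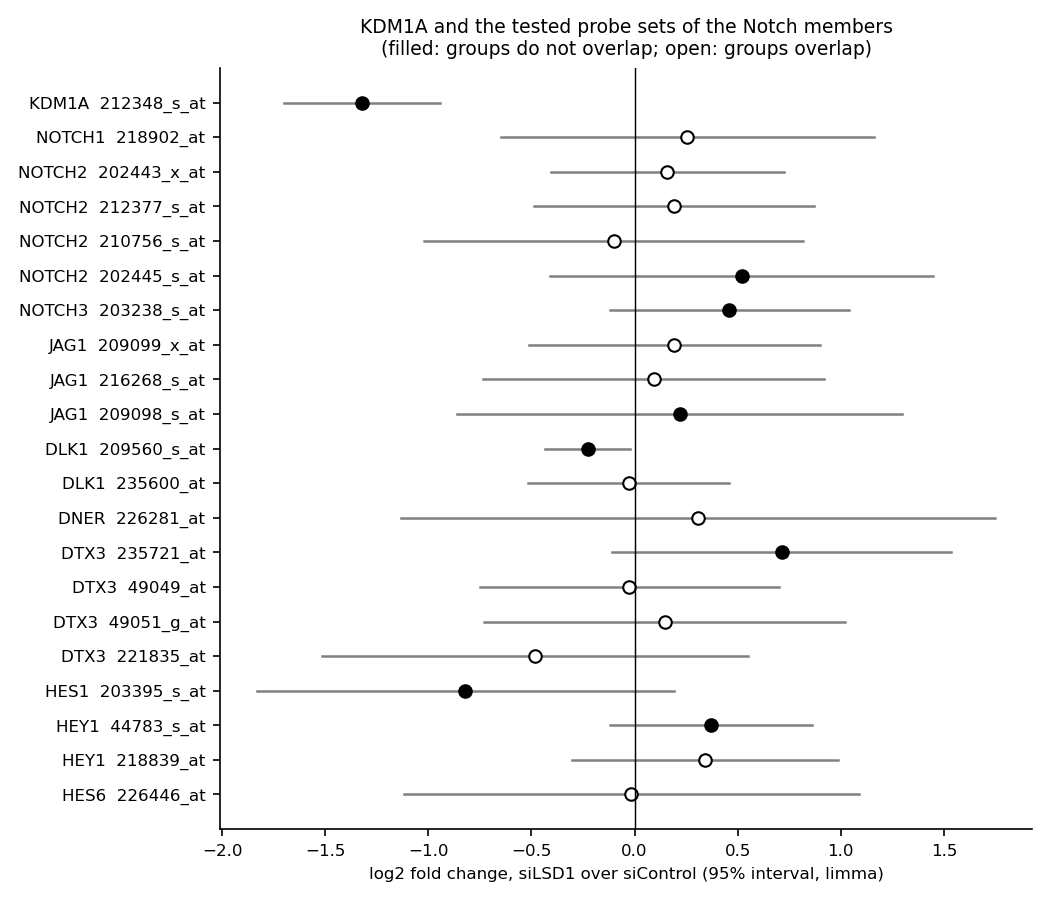
Log2 fold change of KDM1A and of the 20 tested probe sets of the 10 genes (points) with 95% intervals from limma (lines). Filled points mark groups that do not overlap. The interval of KDM1A lies wholly below 0, from -1.70 to -0.94, and among the members only that of DLK1 209560_s_at does, ending at -0.021 in the fit with a mean-variance trend.

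DTX3, a ubiquitin ligase of the Deltex family, whose founding member in the fly regulates Notch, gave readings that depended on the probe set. The brightest, 235721_at, read 8.74 and 8.62 in siLSD1 cells, against 7.41 and 8.52 in siControl cells. Both siLSD1 arrays were higher, but siControl replicate 2 was close to siLSD1 replicate 2 and only siControl replicate 1 was far below. The log2 fold change of 0.71 (95% interval from -0.11 to 1.54, limma unadjusted p = 0.0797) was 0.16 without siControl replicate 1 and 1.27 without siControl replicate 2. Of the 3 other tested DTX3 probe sets, which the annotation derives from 1 common accession, 49049_at had a log2 fold change of -0.025, 49051_g_at of 0.15 and 221835_at of -0.48, all with overlapping groups. That of 49049_at turned to 0.16 under median centring. Across the 4 arrays these 3 correlated with one another (r from 0.61 to 0.90), whereas their r with 235721_at was -0.52 to 0.22. These r values describe 4 points of the same arrays. With the mean of all its probe sets, DTX3 had a log2 fold change of 0.094 and overlapping groups.

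The HES and HEY genes did not move as 1 block. HES1, the founding member of the mammalian family and a direct RBPJ target, had its only tested reading from 203395_s_at, at 3.54 and 4.15 in siLSD1 cells, against 4.82 and 4.50 in siControl cells. Both siLSD1 arrays were lower than both siControl arrays, with group means of 3.84 ± 0.43 and 4.66 ± 0.23 (SD, n = 2). The level was 1.77-fold lower in siLSD1 cells (log2 fold change -0.82, 95% interval from -1.83 to 0.19), which did not pass limma's test (unadjusted p = 0.0969, adjusted p = 0.986). With 1 array left out the value ran from -0.51 without siLSD1 replicate 1 to -1.13 without siLSD1 replicate 2. Because the groups did not overlap, leaving out 1 array could not turn the sign. The value was -0.94 under the deposited scaling and -0.76 under median centring. The signal is only slightly above the level of 3.26 for testing, and the other HES1 probe sets were below it. Of these, 203394_s_at read 1.29 and 2.83 against 3.11 and 2.60, and 203393_at read 1.47 and 1.09 against 0.98 and 1.49, both with overlapping groups. The promoter with the TGGGAA pair shown above belongs to this gene.

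HEY1, a related repressor and likewise a Notch target, had a higher mean in siLSD1 cells by both of its probe sets. The brighter, 44783_s_at, read 8.83 and 9.17 in siLSD1 cells, against 8.78 and 8.48 in siControl cells. Its groups did not overlap, although siLSD1 replicate 1 exceeded siControl replicate 1 by little. The group means of 9.0 ± 0.25 and 8.63 ± 0.21 (SD, n = 2) differed by 1.29-fold (log2 fold change 0.37, 95% interval from -0.12 to 0.86, limma unadjusted p = 0.117). The second, 218839_at, read 7.73 and 8.20 against 7.85 and 7.41, with a log2 fold change of 0.34 and groups that overlapped, though not under median centring. The 2 probe sets followed each other across the arrays (r = 0.98 over 4 arrays). Without siLSD1 replicate 2 the log2 fold changes were 0.20 and 0.11, and without siControl replicate 2 they were 0.22 and 0.12. They were larger without siLSD1 replicate 1 (0.54 and 0.58) and without siControl replicate 1 (0.52 and 0.56).

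HES6, a family member known as an inhibitor of HES1 that is expressed in differentiating neurons, had 1 probe set, 226446_at. It read 8.46 and 7.61 in siLSD1 cells, against 7.36 and 8.74 in siControl cells. The siLSD1 arrays lay between the siControl arrays, and the means of 8.03 ± 0.60 and 8.05 ± 0.97 (SD, n = 2) were nearly equal. Its log2 fold change was -0.016 (95% interval from -1.12 to 1.09), and it became positive at 0.064 with the deposited scaling and at 0.24 with median centring.

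**Figure D3:**
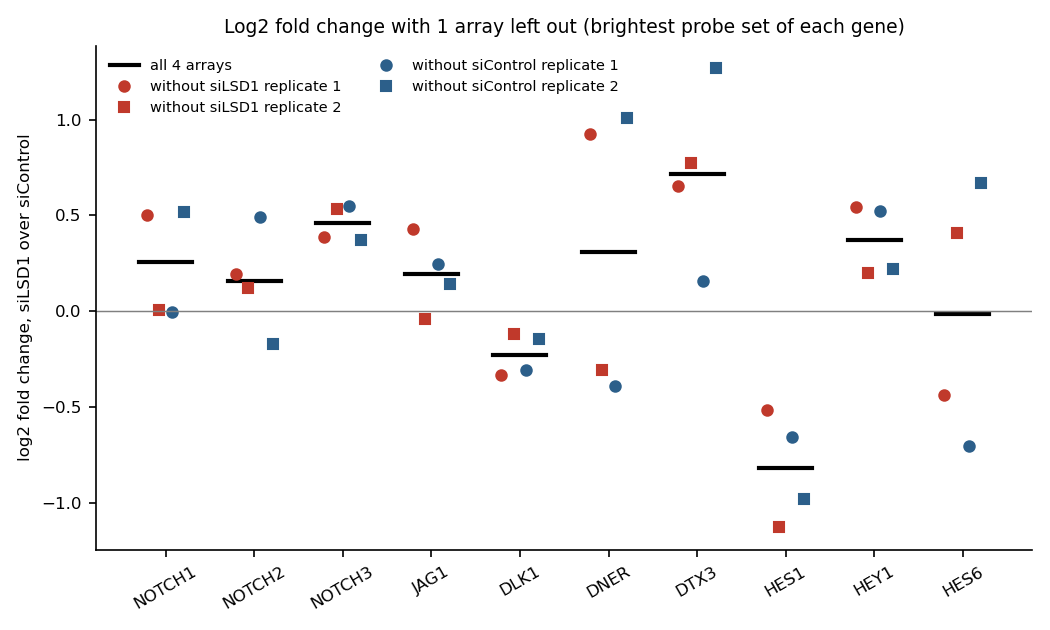
Log2 fold change of the brightest probe set of each gene with all 4 arrays (black bars) and with 1 array left out (points, coloured by the group that lost an array, with circles for replicate 1 and squares for replicate 2). NOTCH3, DLK1, DTX3, HES1 and HEY1 keep their sign throughout, and NOTCH1, NOTCH2, JAG1, DNER and HES6 do not. The genes that keep it are those whose groups do not overlap. For such genes leaving out 1 array cannot turn the sign, so this adds nothing to the lack of overlap.

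Other genes of the pathway were described as lists. Of 85 genes on these lists, 79 had a probe set of their own and 66 were tested by their brightest probe set. Of these, 0 passed limma's adjusted threshold in either direction and 1 had an unadjusted p under 0.05. The mean was higher in siLSD1 cells for 35 and lower for 31, with a median log2 fold change of 0.019. Groups did not overlap for 10 higher genes (15.2%) and 4 lower genes (6.06%), against the 16.7% and 16.0% of all tested probe sets. That background counts every tested probe set, not 1 per gene. Over all genes tested by their brightest probe set, groups did not overlap for 31.7%, both directions together.

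Upstream of the receptors, the values went both ways. Of 7 tested other ligands, 3 were higher and 4 lower. EGFL7, a secreted protein of the vasculature that can bind Notch, had a log2 fold change of 0.48 with groups that did not overlap. CNTN1, a contactin on axons, was at -0.22 with overlapping groups, which was -0.044 without siLSD1 replicate 2, -0.40 without siLSD1 replicate 1 and -0.061 under median centring. All 4 of its tested probe sets were lower, and with their mean it was at -0.36 with groups that did not overlap. MFAP2, a microfibril protein, was at 0.18 and came to -0.029 without siControl replicate 1. The remaining receptor NOTCH4 was at -0.38 with overlapping groups, at -0.12 without siControl replicate 1 and -0.63 without siControl replicate 2, and at -0.18 under median centring. Of 9 genes that glycosylate or mature the receptors, 6 were higher and 3 lower. GXYLT1, a xylosyltransferase that extends sugars on EGF repeats, read 8.03 and 8.29 in siLSD1 cells, against 5.91 and 7.84 in siControl cells. Its log2 fold change of 1.29 (limma unadjusted p = 0.0533) rested on the low siControl replicate 1 and was 0.32 without that array and 2.25 without siControl replicate 2. RFNG, a Fringe glycosyltransferase, was at 0.19 (-0.12 without siControl replicate 1) and XXYLT1, another xylosyltransferase, at -0.27 (0.27 without it).

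Among 7 tested genes of receptor cleavage, 4 were higher and 3 lower. Groups did not overlap for 2 in each direction (28.6%), against 16.7% higher and 16.0% lower of all tested probe sets. PSENEN, a small subunit of gamma-secretase, read 7.76 and 6.90 in siLSD1 cells, against 7.88 and 8.04 in siControl cells. Its log2 fold change was -0.64 (limma unadjusted p = 0.0864), with the low value on siLSD1 replicate 2, the array with the 3′ excess, whose part in it was not tested. It was -0.20 without that array and -1.07 without siLSD1 replicate 1, and under median centring (-0.40) the groups overlapped. APH1A, another gamma-secretase subunit, was at -0.25, which was -0.11 without siLSD1 replicate 2, -0.39 without siLSD1 replicate 1 and -0.071 under median centring. Its groups overlapped under median centring and under the deposited scaling. ADAM17, a protease that can shed Notch, was at 0.23 (0.44 under median centring), although 2 of its 3 probe sets were lower. Of 15 genes of trafficking and turnover, 7 were higher and 8 lower. Groups that did not overlap were found for 0 of the 15, against the same 16.7% and 16.0%. DTX1, a Deltex relative of DTX3, was at 0.92, which came to -0.0015 without siControl replicate 1. The ligand-modifying ligase NEURL1B was at 0.55 (-0.028 without that array). AAK1, a kinase of endocytosis, was at 0.29, and at 0.017 with the mean of all its probe sets.

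In the nucleus, 9 of 17 tested genes of the RBPJ complex, its coactivators and its corepressors were higher and 8 lower, and their median log2 fold change was 0.0091. RBPJ itself read 9.04 and 9.27 in siLSD1 cells, against 9.13 and 9.12 in siControl cells. TLE1, a Groucho corepressor that works with HES proteins, was at 0.87 (0.11 without siControl replicate 1 and 1.64 without siControl replicate 2). TLE3, its relative, was at -0.32 (0.017 and -0.67 without the same arrays). Of the tested probe sets, 2 of 5 were lower for TLE1 and 2 of 4 for TLE3. With the mean of all probe sets of a gene, TLE1 was at 0.068 and TLE3 at -0.052. KAT2A, a histone acetyltransferase, was at 0.45, with 0.21 without siControl replicate 1 and 0.69 without siControl replicate 2. Of 11 further target genes with a probe set only 4 were bright enough to be tested, with 2 higher and 2 lower. NRARP, a feedback inhibitor of Notch, read 6.86 and 7.18 against 6.70 and 6.84 (log2 fold change 0.26). Its groups did not overlap, except under the deposited scaling, where they did. The value was 0.095 without siLSD1 replicate 2, 0.42 without siLSD1 replicate 1 and 0.47 under median centring. SOX9 was at 0.29 (1.11 without siControl replicate 1 and -0.53 without siControl replicate 2) and HES7 at -0.25. Of 6 tested proneural factors and their partners, 4 were higher and 2 lower. TCF4, an E-protein partner of the proneural factors, read 12.17 and 12.27 in siLSD1 cells, against 12.10 and 11.97 in siControl cells (log2 fold change 0.19, limma unadjusted p = 0.0289, adjusted p = 0.986). With no mean-variance trend its unadjusted p was 0.428, and its log2 fold change was 0.29 under median centring and 0.11 under the deposited scaling. NEUROD4 was at 1.27 and rested on a single low value of 1.28 on siControl replicate 2. Its mean over the arrays, 3.27, was barely above the level of 3.26 required for testing. The NEUROD4 group means were 3.91 in siLSD1 cells and 2.64, below that level, in siControl cells, so the size of its difference is uncertain. TCF12 was at 0.12.

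**Figure D4:**
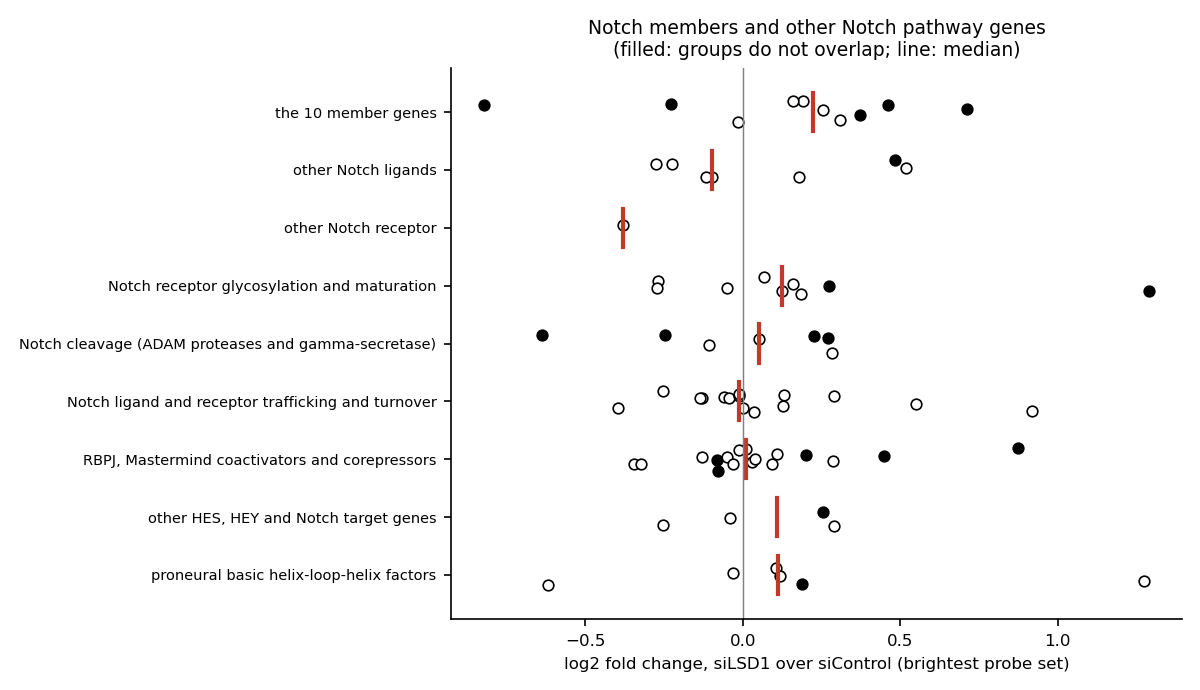
Log2 fold change of the brightest tested probe set of each of the 10 member genes (top) and of 66 other Notch pathway genes by list. Each point is a gene, filled where the groups do not overlap, vertical positions within a list are arbitrary, and red lines are list medians. The points of nearly every list fall on both sides of 0, and the single NOTCH4 lies at -0.38.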

How the data were processed

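Per the labels' protocols, total RNA of each of 4 cultures was column-purified and biotin-labelled for 1 Affymetrix array. The authors deposited 1 log2 value per probe set and array. The log2 scale was found from the values: with 2% trimmed at both ends, base-2 antilogs averaged 100.03 on every array, against 1408 to 1449 for base-e antilogs. The software used for the deposited values is not given in the sources. Groups and replicate numbers came from the sample titles, 1 of which abbreviates the target's name. No 2 arrays held identical values.

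From these values the arrays were quantile normalized, so that any overall shift between groups would be lost. The 62 controls were left out, and 32768 of 54613 probe sets at or above the 40th percentile were fitted in R 4.3.3 with limma 3.58.1 (lmFit, eBayes with a mean-variance trend, two-sided, no replicate term, Benjamini-Hochberg adjustment over all tested probe sets, threshold 0.05). The fit was also run on simulated data with independent probe sets and added changes. Those data did not imitate the differences between arrays described above, so the run does not show how the fit behaves on these arrays. Gene symbols came from GEO's platform annotation, which can be old. Alternatives were the deposited scaling, centring each array on its median, no filter or the 60th percentile, 1 probe set or 1 mean per gene, no trend, a replicate term, and leaving out each array. Named were all members, KDM1A, up to 3 genes of each pathway list with the smallest p, and markers used in the check of the cell line. RBPJ was named as well, after its values were seen. The members and lists were chosen with earlier results of these data known. The number of arrays limits the precision.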

Additional observations from a re-analysis of the deposited data

How the results depend on the processing

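With 12 alternatives, limma called 0 probe sets over the whole table in 11. Without siControl replicate 2 it called 1, RARS1, a transfer RNA synthetase gene whose siControl replicate 1 value was 7.30, against 10.82 on siControl replicate 2, so that counts without 1 array ran from 0 to 1. The log2 fold change of KDM1A ran from -1.39 to -1.14. With a replicate block it was -1.32 with a limma adjusted p of 0.694, and the block changed no call. Same-numbered arrays did not deviate together (r = -0.042 over probe sets). The median log2 fold change of the members, 0.18 in the fit reported, was 0.10 under the deposited scaling, 0.27 under median centring (which moved the median of all tested probe sets to 0.15), 0.15 with no filter, 0.15 with the 60th percentile filter, 0.22 with the brightest probe set per gene and 0.25 with the mean of all probe sets of a gene. Leaving out 1 array gave 0.12 to 0.21. Groups did not overlap for 7 of 20 member probe sets (32.7% of all tested, both directions), 4 of 14 with the 60th percentile filter (32.3% of all), 10 of 28 with no filter (32.7%), 5 of 10 genes with the brightest probe set (31.7%) and 1 of 8 genes with the mean of all probe sets (33.5%). With 1 array left out the count was 10 to 17 of 20, where 59.9% to 74.1% of all tested probe sets do not overlap. Under the deposited scaling it was 5 of 20 (32.9% of all), each among the 7, and under median centring 8 of 20 (37.9%), 6 of them among the 7. The 1 gene without overlap by the mean of all probe sets was NOTCH1, at a log2 fold change of 0.97. Its mean includes a probe set below the level for testing. NOTCH3 (0.44), DLK1 (-0.13), DTX3 (0.094) and HEY1 (0.36) overlapped by that mean, and HES1 and JAG1 were not among the 8. So none of the 5 genes separated by their brightest probe set stayed separated by the mean.

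Of 370 values of 32 named genes, 22 turned sign and 0 passed the threshold. HES6 turned to 0.064 under the deposited scaling and 0.24 under median centring. With the mean of all probe sets ADAM17 was -0.084 and TCF12 -0.0024. Leaving out 1 array gave ranges through 0 for NOTCH1 (-0.0041 to 0.52), NOTCH2 (-0.17 to 0.49), JAG1 (-0.043 to 0.43), DNER (-0.39 to 1.01), HES6 (-0.70 to 0.67), MFAP2 (-0.029 to 0.39), RFNG (-0.12 to 0.50), XXYLT1 (-0.81 to 0.27), NEURL1B (-0.028 to 1.13), DTX1 (-0.0015 to 1.84), AAK1 (-0.042 to 0.62), TLE3 (-0.67 to 0.017), HES7 (-0.67 to 0.16), SOX9 (-0.53 to 1.11), NEUROD4 (-0.083 to 2.63) and TCF12 (-0.011 to 0.25). The causes were not tested.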
